A study of Mus musculus with 9 samples.

Results

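The jejunum of Gata4 mutant mice was compared with the ileum of control mice, to find which transcripts still separated a jejunum without a wild-type copy of Gata4 from a true ileum. The arrays were chosen by their titles, and the comparison uses 6 of the 9 arrays of the study, 3 of mutant jejunum and 3 of control ileum. The other 3 arrays, of control jejunum, are given beside each result as the starting level of the segment. Each Affymetrix whole-genome mouse array received total RNA of 1 adult male mouse, 6 to 8 weeks old. Control mice were Gata4loxP/+VilCre, with 1 wild-type copy of Gata4 beside 1 flanked by loxP sites. Mutant mice were Gata4loxP/-VilCre, with 1 null copy beside the flanked one. The villin-Cre transgene, which drives Cre recombinase in the intestinal epithelium, was thus carried by all 3 groups, as was the loxP-flanked copy, and cells outside the epithelium kept that copy. Jejunum was taken 10 cm beyond the pyloric sphincter and ileum 1 cm before the cecum, and control jejunum and control ileum came from different animals. The labels do not say which layers of the gut wall the samples held.

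The small intestine changes its work along its length. Jejunal enterocytes take up most sugars, fats and drugs to be detoxified, and carry lactase, the fructose and glucose carriers and the machinery that packs fat into chylomicrons. Ileal enterocytes recover bile acids and send the hormone FGF15 to the liver, and the ileal crypts and villi hold more Paneth cells and more of the endocrine cells that release GLP-1 and PYY. GATA4 is a zinc finger transcription factor of the jejunal epithelium and is little expressed in the distal ileum.

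Levels are log2(intensity + 16) after quantile normalization over the 9 arrays, a scale that runs from 4 to 13.9, so that a difference of 1 is 2-fold and small intensities are compressed. A gene was called different where the adjusted p of limma, over all probe sets tested, lay under 0.05. Of 13830 genes tested, 272 were called higher in mutant jejunum than in control ileum (1.97%) and 235 lower (1.7%), and the median difference over all genes was -0.02. Called differences of at least 2-fold numbered 136 higher and 95 lower, and those of at least 4-fold 36 higher and 11 lower. In all, 507 genes were called in either direction (3.67%). The groups did not overlap for any called gene, so a lack of overlap adds nothing to a call. Over all genes tested, 22.6% had groups that did not overlap. By the same fit, 607 genes (4.39%) were called between mutant and control jejunum and 2477 (17.9%) between control ileum and control jejunum. The 95% confidence interval of the difference between mutant jejunum and control ileum lay within 2-fold in either direction for 12028 genes (87% of those tested).

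These counts rest on few arrays. Over probe sets, 406 were higher (1.39%) and 372 lower (1.27%), 778 in all (2.65%). The counts were 124 and 76 without mutant jejunum 1, 203 and 221 without mutant jejunum 2, 254 and 177 without control ileum 1, 133 and 83 without control ileum 2, and 236 and 275 without control ileum 3. Mutant jejunum 3 lay far from its group on principal component 2 (-55.8, with 12 and 7.06 for mutant jejunum 1 and 2), and without it the counts were 546 and 496. The ileum arrays were dimmer, with a trimmed mean intensity of 112 ± 13.2 against 168 ± 18.2 in mutant jejunum (SD, n = 3 each), and brightness and segment cannot be told apart. Before scaling, 18 spiked-in control probe sets were dimmer there too. Their mean log2 was 9.89 in control ileum, 10.72 in mutant jejunum and 10.59 in control jejunum. The split of calls followed the scaling: 52.2% of called probe sets were higher as given here, 98.3% with no scaling between arrays and 79.1% with arrays centred on their medians. With no scaling the median difference over all probe sets tested was 0.41. All 406 probe sets called higher then kept the call, but 134 of the 372 called lower did. With arrays centred on their medians 399 and 225 kept it. The alternative settings thus did not weigh alike on the 2 directions. A gene that the filter of an alternative setting left out was not tested there and was taken as keeping its call. Counted so, under each of 20 alternative settings 71 of the 272 genes kept the call as higher and 35 of the 235 as lower. These are the genes on which the account below leans, and for other named genes the arrays that ended the call are given.

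Epithelial markers were high in both groups, but markers of other cell types differed between them. The mean level of 13 general epithelial markers was 12.12 to 12.20 on the mutant arrays and 12.30 to 12.34 on the ileum arrays, and Vil1 (villin) stood at 12.83 ± 0.17 and 12.88 ± 0.04. Of 14 smooth muscle markers, 10 were called lower in mutant jejunum and 0 higher. Their mean level was 8.58 to 9.24 on the mutant arrays, 8.79 to 9.43 on the control jejunum arrays and 9.84 to 10.25 on the ileum arrays, so that both jejunal groups lay below the ileum. Of 14 measured markers of enteric neurons and glia, 6 were called lower, with means of 5.46 to 5.66 in mutant jejunum and 5.83 to 6.17 in ileum. Of 12 measured markers of T and intraepithelial lymphocytes, 7 were called higher, with means of 8.46 to 8.76 in mutant jejunum and 6.87 to 7.82 in ileum, lowest in control ileum 1. All of the smooth muscle markers were detected, while Cd4, Cd2, Lck and Trdc of the T cell list were not measured here. The smooth muscle count was 2 without mutant jejunum 1, 5 without control ileum 1 and 2 without control ileum 2. The neuronal count was 1, 2, 3 and 1 without mutant jejunum 1, mutant jejunum 2, control ileum 1 and control ileum 2, and the T cell count was 1, 1, 3, 4, 4 and 4 without mutant jejunum 1, 2 and 3, control ileum 1 and 3 and control jejunum 2. Adipocyte markers, of which 4 were measured and 0 called, were high on mutant jejunum 2 (8.63) and control ileum 3 (9.37). The part of these cells in the differences described below was not tested. In whole tissue, fewer cells of a type and less RNA per cell cannot be told apart.

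**Figure D1:**
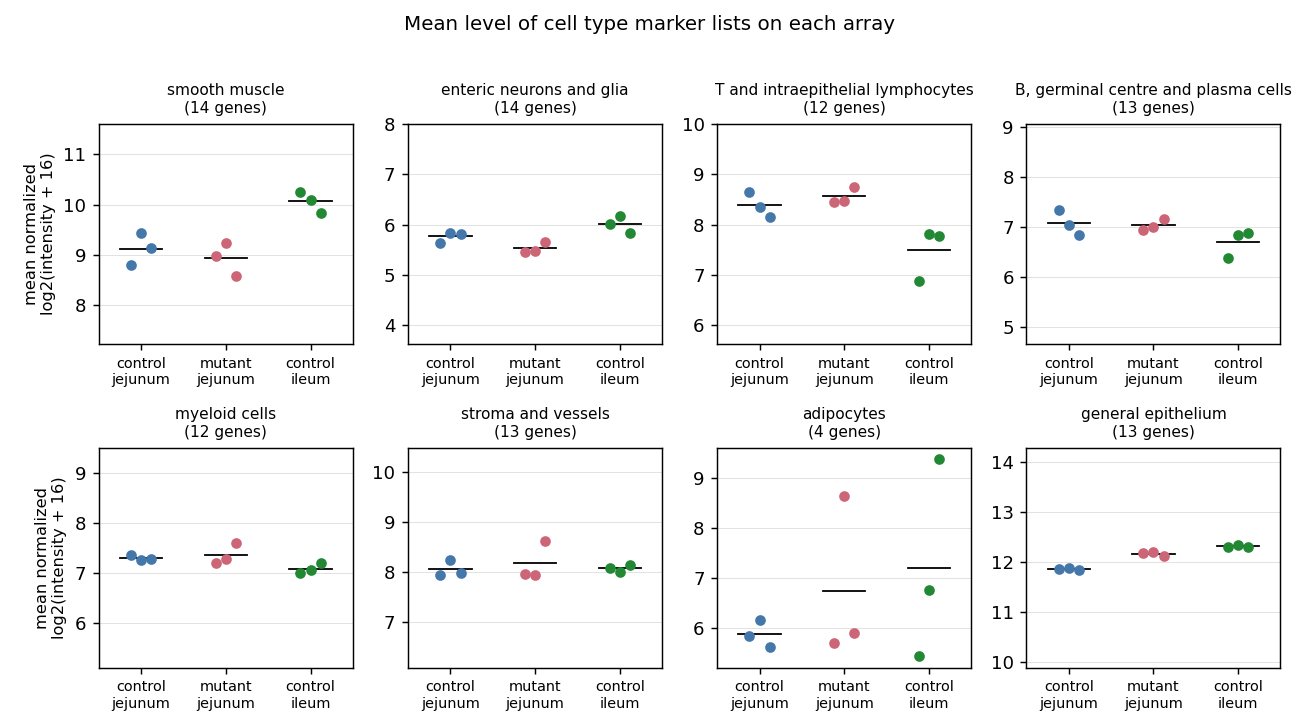
Mean normalized log2(intensity + 16) of the measured genes of 8 cell type marker lists on each of the 9 arrays (1 point per array; the bar is the group mean). Smooth muscle markers lie higher on the ileum arrays (9.84 to 10.25) than on the mutant arrays (8.58 to 9.24), lymphocyte markers lie lower (6.87 to 7.82 against 8.46 to 8.76), and adipocyte markers are high on mutant jejunum 2 (8.63) and control ileum 3 (9.37).

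The promoters of the genes with the largest differences show what sequence lies before the starts that separated the groups. The 250 bases before the RefSeq gene start (GRCm38.p6, 5′ to 3′ on the strand of the gene) are given for the 3 leading genes of each direction that have an entry. Capitals mark, on either strand, the GATA hexamer AGATAA with its variants that end in G (AGATAG), begin with T (TGATAA) or do both (TGATAG), the HNF1 core GTTAAT and the CDX hexamer TTTATG, and no marked stretch overlaps another. Slc2a2, Fabp1 and Lct were higher in mutant jejunum, and Saa1, Rpgrip1 and Ang were lower.
Slc2a2, chr3:28697653-28697902, plus strand: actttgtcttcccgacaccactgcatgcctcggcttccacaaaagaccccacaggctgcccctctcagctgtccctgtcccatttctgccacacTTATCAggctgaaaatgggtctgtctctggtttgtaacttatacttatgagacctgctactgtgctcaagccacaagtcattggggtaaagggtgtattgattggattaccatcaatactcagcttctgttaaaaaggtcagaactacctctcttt
Fabp1, chr6:71199629-71199878, plus strand: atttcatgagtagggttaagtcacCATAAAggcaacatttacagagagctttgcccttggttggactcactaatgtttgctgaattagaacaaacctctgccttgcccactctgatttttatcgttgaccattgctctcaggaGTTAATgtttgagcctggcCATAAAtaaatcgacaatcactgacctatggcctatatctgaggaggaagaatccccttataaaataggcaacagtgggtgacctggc
Lct, chr1:128328319-128328568, minus strand: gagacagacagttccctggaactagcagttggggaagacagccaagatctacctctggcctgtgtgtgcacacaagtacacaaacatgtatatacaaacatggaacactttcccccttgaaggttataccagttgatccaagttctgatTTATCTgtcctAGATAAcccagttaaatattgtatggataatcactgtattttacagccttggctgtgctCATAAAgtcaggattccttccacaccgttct
Saa1, chr7:46742981-46743230, minus strand: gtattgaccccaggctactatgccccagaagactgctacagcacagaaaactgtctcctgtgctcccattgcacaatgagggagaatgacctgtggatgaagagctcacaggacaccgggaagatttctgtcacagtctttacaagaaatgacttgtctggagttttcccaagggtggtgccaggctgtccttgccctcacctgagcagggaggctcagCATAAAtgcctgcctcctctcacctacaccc
Rpgrip1, chr14:52110653-52110902, plus strand: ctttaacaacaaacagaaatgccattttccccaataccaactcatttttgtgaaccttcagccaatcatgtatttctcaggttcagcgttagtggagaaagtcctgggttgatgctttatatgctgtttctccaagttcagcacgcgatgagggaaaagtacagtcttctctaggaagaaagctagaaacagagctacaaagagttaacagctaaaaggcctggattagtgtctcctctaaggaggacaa
Ang, chr14:51090827-51091076, plus strand: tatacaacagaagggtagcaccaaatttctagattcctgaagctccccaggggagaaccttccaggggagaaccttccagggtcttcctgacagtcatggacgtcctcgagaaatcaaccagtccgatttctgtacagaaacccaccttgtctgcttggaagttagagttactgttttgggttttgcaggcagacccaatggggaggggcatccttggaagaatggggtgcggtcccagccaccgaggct

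The Lct window held 2 GATA hexamers, with their first bases at -101 and -90 from the gene start, and 1 CDX hexamer, at -31. That of Slc2a2 held 1 GATA hexamer, at -156. The Fabp1 window held the HNF1 core, at -107, and 2 CDX hexamers, at -226 and -88. That of Saa1 held 1 CDX hexamer, at -31 as in Lct. The windows of Rpgrip1 and Ang held none of the letters searched. Over the 11110 tested genes with a promoter entry, 18.1% held a GATA hexamer, 4% the HNF1 core and 6.48% the CDX hexamer, with a median GC content of 59.2%. Over the 222 such genes called higher the shares were 28.8%, 9.01% and 12.2%, and over the 179 called lower 16.8%, 8.38% and 6.7%. Their median GC content was 54.4% and 58%. Over all 27025 genes with a promoter entry, tested or not, the shares were 27.1%, 6.52% and 11.1%, at a median GC content of 52%. The part of base composition in these shares was not tested. Among the 55 genes that stayed higher under each alternative, 36.4% held a GATA hexamer, 23.6% the HNF1 core and 8 of them the CDX hexamer, at a median GC content of 53.2%. Among the 23 that stayed lower, the shares were 13%, 17.4% and 13%, at a median GC content of 52.4%. A match is a description of letters and was not tested as a binding site.

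Gata4 itself stayed at its jejunal level in mutant jejunum. The brighter of its 2 probe sets stood at 9.61, 9.51 and 9.38 in mutant jejunum 1, 2 and 3, against 5.64, 5.30 and 5.20 in control ileum 1, 2 and 3, and the control jejunum mean was 9.53 ± 0.04. The groups did not overlap, and the difference from ileum was 4.12 (95% interval 3.81 to 4.43, adjusted p = 2.39e-07), with the second probe set called alike. No source at hand places the probe sets inside or outside the deleted stretch of the gene, so their level checks nothing about the deletion. Onecut2, a cut-homeobox factor of the proximal gut, showed the same order, with 8.46, 8.06 and 8.20 in mutant jejunum, 4.61, 4.03 and 4.10 in control ileum and a mean of 8.67 ± 0.31 in control jejunum. Its difference from ileum was 3.99 (3.54 to 4.44, adjusted p = 3.27e-06) in the brightest probe set, and all 3 probe sets were called higher. Because ileum lay near the bottom of the scale, the size of the Onecut2 difference moved with the constant added before the logarithm, from 6.59 with 1 to 2.38 with 64.

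Of 25 regional transcription factors measured, 5 were called higher in mutant jejunum (Gata4, Onecut2, Creb3l3, Pdx1 and Zfpm1), 1 lower (Foxa1) and 19 were not called. Pdx1, the homeobox factor of the duodenum and pancreas, lay between the control segments, at 6.51, 5.50 and 5.81 in mutant jejunum, against 4.69 ± 0.29 in ileum and 7.02 ± 0.10 in control jejunum (difference from ileum 1.25, adjusted p = 0.0244; 2.15 and 0.58 with 1 and 64 added). Zfpm1, the GATA cofactor FOG1, likewise lay between them, at 7.57 ± 0.27 against 6.63 ± 0.11 and 8.97 ± 0.11 (0.95, adjusted p = 0.0127). The Pdx1 call was lost without mutant jejunum 1 (adjusted p = 0.0693), control ileum 2 (0.0996) and control ileum 3 (0.0637) and in a fit of the 2 groups alone (0.0706), and that of Zfpm1 without mutant jejunum 1 (0.0503) and control ileum 2 (0.0572). Creb3l3, a lipid-regulated factor (2.14, adjusted p = 0.0189), was lost without mutant jejunum 1 (0.0778), mutant jejunum 2 (0.05), control ileum 2 (0.0811) and control ileum 3 (0.0526). Foxa1, a forkhead factor of the endoderm, differed by -0.67 (adjusted p = 0.0472), and its call was lost without any single array other than mutant jejunum 3 (0.0582 to 0.164) and with no scaling between arrays (-0.10, 0.674). The count of 5 higher was 2 without mutant jejunum 1, 2 without control ileum 2 and 3 without control ileum 3. The other GATA factors of the gut did not pass: Gata6 differed by 0.20 (-0.12 to 0.52) and Gata5 by 0.37 (0.04 to 0.71). Cdx2, the factor that sets intestinal identity, differed by -0.08 (-0.32 to 0.16). It was called higher under an alternative in which its sign turned (adjusted p = 0.0463).

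Genes that move sugars through the enterocyte included the largest difference from ileum. Of 11 measured genes of sugar transport and fructose metabolism, 7 were called higher in mutant jejunum and 0 lower, with a median difference of 1.24, and 6 of the 7 held under each of the 20 alternatives. Slc2a2 (GLUT2), the basolateral exit for glucose and fructose, stood at 11.66, 10.61 and 11.10 in mutant jejunum 1, 2 and 3, against 6.48, 5.13 and 4.12 in control ileum 1, 2 and 3. It was 12.15 to 12.25 in control jejunum, so the mutant level was not called against its own segment (difference -1.08, adjusted p = 0.264) and lay 5.88 above ileum (4.87 to 6.89, adjusted p = 0.000124). With 1 and 64 in place of 16 added before the logarithm the difference was 7.2 and 4.65, since ileum reached the bottom of the scale. Slc2a5 (GLUT5), the apical fructose carrier, was intermediate, at 10.58, 9.83 and 10.09 in mutant jejunum between 8.19 ± 0.53 in ileum and 11.22 ± 0.13 in control jejunum. It differed from ileum by 1.98 (1.43 to 2.53, adjusted p = 0.0031). Khk (ketohexokinase), which phosphorylates fructose, was intermediate too, with a difference of 1.24 from ileum (adjusted p = 0.00381).

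The gluconeogenic enzymes of the same list did not move away from the jejunal level. Fbp1 (fructose-1,6-bisphosphatase) stood at 11.92, 11.27 and 11.08 in mutant jejunum, 9.02, 8.48 and 8.21 in ileum and 11.43 ± 0.23 in control jejunum, a difference from ileum of 2.86 (2.33 to 3.38, adjusted p = 0.000197). G6pc (glucose-6-phosphatase) stood at 9.26, 8.66 and 8.13 in mutant jejunum, against 5.76, 5.22 and 5.6 in ileum, a difference of 3.16 (adjusted p = 0.00161), with 8.62 ± 0.75 in control jejunum. Slc5a4b, a member of the sodium and glucose transporter family, was low on 1 array, with 11.02, 10.69 and 8.76 in mutant jejunum 1, 2 and 3, yet stayed above the 7.03, 6.45 and 5.90 of ileum (3.70, adjusted p = 0.00458). By contrast Slc5a1 (SGLT1), the apical glucose carrier used by both segments, was not called, with 12.70 ± 0.13 in mutant jejunum and 12.50 ± 0.22 in ileum (0.20, -0.04 to 0.45).

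**Figure D2:**
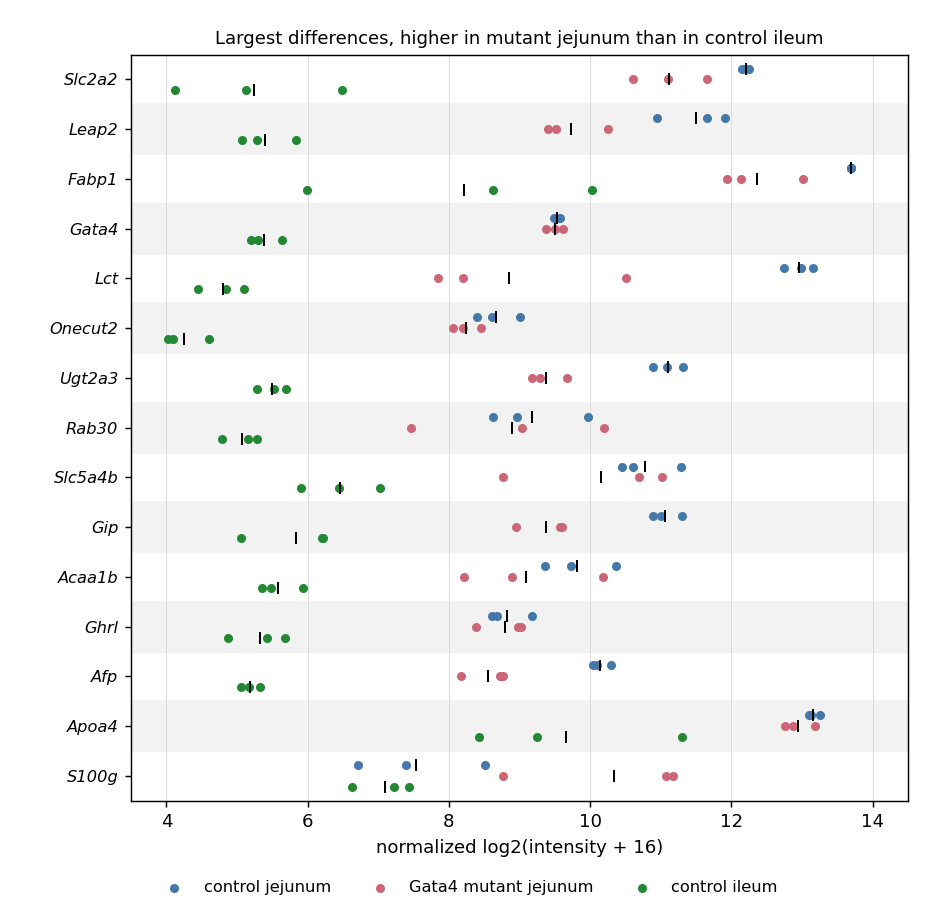
Normalized log2(intensity + 16) of the 15 genes with the largest called excess in mutant jejunum over control ileum, 1 point per array and a bar at each group mean. For Gata4, Onecut2 and Ghrl the mutant arrays lie with control jejunum, for Lct, Ugt2a3, Leap2 and Gip between the segments, and for S100g above both.

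Disaccharidases of the brush border carry out the last step of carbohydrate digestion. Of 4 measured members of a list of disaccharidases and other brush border enzymes, 3 were called higher than in ileum and 0 lower. Lct (lactase) was 12.74 to 13.15 in control jejunum, 10.51, 7.84 and 8.20 in mutant jejunum 1, 2 and 3 and 4.85, 5.10 and 4.45 in ileum, with no overlap between any 2 groups. It differed by -4.11 from control jejunum (adjusted p = 0.0018) and lay 4.05 above ileum (2.88 to 5.22, adjusted p = 0.00381; 5.19 and 2.78 with 1 and 64 added, since ileum lay near the bottom of the scale), and mutant jejunum 1 was the highest of the 3. Mgam (maltase-glucoamylase) kept its jejunal level, 12.82 ± 0.12 against 12.95 ± 0.09 in control jejunum and 11.85 ± 0.30 in ileum (0.98, adjusted p = 0.00516). Treh (trehalase) was intermediate, with 10.76 ± 0.45 against 8.87 ± 0.85 in ileum (1.90, adjusted p = 0.0197). The Treh call was lost without mutant jejunum 1 (0.0782), mutant jejunum 2 (0.0548), control ileum 2 (0.0795) and control ileum 3 (0.0579). Of 13 brush border peptidases, 1 was called higher and 1 lower, and only the higher one, Mme (neprilysin), held under each alternative in mutant jejunum (11.64 ± 0.20 against 10.28 ± 0.24, difference 1.36, adjusted p = 0.000727). Of 19 amino acid and peptide carriers, likewise 1 was called higher and 1 lower, and only the higher one, Slc7a15, held (8.93 ± 0.42 against 7.49 ± 0.23, 1.44, adjusted p = 0.00811). Slc15a1 (PEPT1), the peptide carrier of the brush border, differed by -0.17 (-0.65 to 0.30).

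Apolipoproteins package absorbed fat for export. Of 13 measured apolipoproteins and genes of chylomicron assembly, 6 were called higher than in ileum and 0 lower, and Apob, Apoc2, Apoc3 and Mttp held under each alternative. Apoc2, the activator of lipoprotein lipase, stood at 12.76, 11.95 and 11.60 in mutant jejunum, against 9.86, 8.62 and 9.06 in ileum (2.92, 2.24 to 3.61, adjusted p = 0.00103). Apoc3, which restrains that lipase, stood at 11.89 ± 0.65 against 9.52 ± 0.61 (2.36, adjusted p = 0.00468). The groups did not overlap for either gene, and both stood higher still in control jejunum (12.98 ± 0.05 and 13.08 ± 0.14). Apob, the structural protein of the chylomicron, was 12.96 ± 0.25 against 11.94 ± 0.19 (1.03, adjusted p = 0.00319), though the second of its 2 probe sets was not called (0.92, adjusted p = 0.154). Mttp, which loads lipid onto that protein, was 12.29 ± 0.29 against 11.18 ± 0.09 (1.11, adjusted p = 0.00261).

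Apoa4, made in enterocytes during fat absorption, was at the control jejunum level in mutant jejunum (13.18, 12.87 and 12.76, against 13.16 ± 0.08) and spread widely in ileum (11.30, 8.43 and 9.25). Its difference from ileum was 3.28 (2.12 to 4.43, adjusted p = 0.0119), and the call was lost without mutant jejunum 1 (0.0505). Fabp1, the fatty acid binding protein shared with liver, stood at 13.01, 11.94 and 12.13 in mutant jejunum, against 10.02, 8.63 and 5.99 in ileum. Its difference of 4.15 (2.52 to 5.78, adjusted p = 0.0176) was lost without mutant jejunum 1 (0.0731), without control ileum 2 (0.056) and in a fit of the 2 groups alone (0.0571). The ileal arrays spread widely for this gene (SD 2.04), and control ileum 3 was the lowest. For Apoa1 and Fabp2, other lipid carriers of the enterocyte, all groups lay at or near the top of the scale, where differences are compressed, and neither was called. Cd36, the fatty acid translocase, had left the jejunal level: it read 10.39 ± 0.22 in control jejunum, 6.73 ± 0.39 on the mutant jejunum arrays and 6.32 ± 1.36 in ileum, and the difference between mutant jejunum and ileum was not called (0.41, -0.71 to 1.53). Without control ileum 3, the highest ileal array, it was 1.19 and called (adjusted p = 0.0368). That array was also high in adipocyte markers (9.37, against 5.44 and 6.76 on control ileum 1 and 2), whose part was not tested.

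Of 20 genes of fatty acid uptake and triglyceride resynthesis, 7 were called higher and 0 lower, with a median difference of 0.42, but none of these calls held under each alternative. The count was 0 without mutant jejunum 1, 0 without control ileum 2, 2 without mutant jejunum 2, 3 without control ileum 3, and 3, 4 and 3 without control jejunum 1, 2 and 3. Of 17 genes of fatty acid oxidation, 7 were called higher and 0 lower, with a median of 0.53, and the count was 2 without mutant jejunum 1, 3 without mutant jejunum 2 and 2 without control ileum 2. Cpt2 and Acaa2 held throughout. Cpt2, which releases the acyl group inside the mitochondrion, was 10.68 ± 0.10 in mutant jejunum, 10.68 ± 0.07 in control jejunum and 9.88 ± 0.20 in ileum (0.80, adjusted p = 0.00811; the dimmer of 2 probe sets differed by 0.20, adjusted p = 0.669). Acaa2, the last thiolase of the pathway, was 10.47 ± 0.08 against 9.49 ± 0.21 in ileum (0.98, adjusted p = 0.00319). Acaa1b, a peroxisomal thiolase, showed a larger difference, with 10.18, 8.89 and 8.21 in mutant jejunum against 5.93, 5.35 and 5.48 in ileum (3.51, adjusted p = 0.00227).

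Of 21 measured enzymes that conjugate drugs and other small molecules, 7 were called higher than in ileum, 0 lower and 14 not called, with a median of 0.61, and the count was 3 without mutant jejunum 1, 3 without mutant jejunum 2 and 4 without control ileum 1. Ugt2a3, a glucuronosyltransferase, stood at 9.67, 9.18 and 9.29 in mutant jejunum, against 5.70, 5.28 and 5.52 in ileum, with 11.10 ± 0.21 in control jejunum. It lay 3.88 above ileum (3.5 to 4.26, adjusted p = 1.03e-06) and differed by -1.72 from control jejunum (adjusted p = 0.000341), each group apart from the others. Its relative Ugt2b5 held the same order at smaller size (8.89 ± 0.24, 9.99 ± 0.06 and 11.10 ± 0.12 in ileum, mutant and control jejunum, and 1.11 above ileum, adjusted p = 0.00241). Ugt2b genes are close in sequence, and cross-hybridization among them was not tested. Gstm3, a glutathione transferase, was 11.88 ± 0.80 against 9.59 ± 0.54 (2.29, adjusted p = 0.0119).

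Nr1i3 (CAR), a nuclear receptor that switches on such enzymes, was 7.70, 7.39 and 6.84 in mutant jejunum, 5.92, 5.10 and 5.12 in ileum and 8.78 ± 0.23 in control jejunum (1.93 above ileum, 1.36 to 2.5, adjusted p = 0.00447; 1.20 with 64 added). It was 1 of 2 nuclear receptors called higher among 29, the other being Nr0b2. Of the 29, 25 had an interval within 2-fold of ileum, near the 87% of all genes tested. Of 19 cytochrome P450 genes, 3 were called higher and 1 lower, and only the lower one, Cyp2s1, held under each alternative. The count of 3 was 0 without mutant jejunum 1, mutant jejunum 2 or control jejunum 1, 1 without control jejunum 2 or 3 or any single ileum array, and 7 without mutant jejunum 3. Cyp2s1 was lower than in either segment, with 8.21, 8.55 and 8.34 in mutant jejunum against 9.52, 9.50 and 9.62 in ileum and 9.26 ± 0.08 in control jejunum (-1.18 against ileum, adjusted p = 0.000894, and -0.89 against control jejunum, adjusted p = 0.00271).

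Of 23 endocrine transcripts measured, 2 were called higher in mutant jejunum than in ileum, 5 lower and 16 not called. Gip, the incretin of the proximal K cell, stood at 9.60, 8.95 and 9.57 in mutant jejunum, against 6.21, 5.06 and 6.22 in ileum (3.54, 2.90 to 4.19, adjusted p = 0.000187), below its control jejunum mean of 11.06 ± 0.21. Ghrl, the stomach and duodenal hormone ghrelin, did not leave the jejunal level: 8.98, 8.38 and 9.02 in mutant jejunum, 8.82 ± 0.31 in control jejunum and 5.68, 4.87 and 5.42 in ileum (3.47, adjusted p = 4.62e-05).

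Among hormones of the distal gut, Gcg and Gal lay near the jejunal level, Pyy between the segments and Nts near ileum. Gcg, whose product in the gut is GLP-1, stood at 8.15, 8.12 and 8.20 in mutant jejunum, against 10.05, 9.99 and 10.13 in ileum (-1.90, -2.15 to -1.65, adjusted p = 1.26e-05), and the mutant level lay close to the 8.45 ± 0.13 of control jejunum. Gal (galanin), a peptide of enteric neurons as well, stood at 5.83 ± 0.55 against 7.42 ± 0.25 in ileum (-1.58, adjusted p = 0.0104; -1.05 with 64 added), with 6.05 ± 0.15 in control jejunum. Pyy lay between the segments, at 8.88, 8.78 and 8.28 against 9.85 ± 0.03 in ileum and 7.18 ± 0.42 in control jejunum (-1.21 against ileum, adjusted p = 0.0159). Its call was lost with no scaling between arrays (0.0794), with arrays centred on their medians (0.0556) and without control ileum 2 (0.0625). Nts (neurotensin) stood at 11.19 ± 0.23 against 11.04 ± 0.12 (0.14, -0.18 to 0.46; called higher with no scaling, adjusted p = 0.016) and 9.54 ± 0.21 in control jejunum. The proximal hormone Cck differed by -1.93 from control jejunum (adjusted p = 0.000117) and by 0.65 from ileum (0.28 to 1.01, adjusted p = 0.0669). It was called higher than ileum without control ileum 3 (0.0342), with array weights (0.0146), with arrays centred on their medians (0.036) and with no scaling (0.00445). The count of 5 lower was 3 without mutant jejunum 1, 3 without mutant jejunum 2, 2 without control ileum 2 and 3 without control ileum 3.

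The other leading genes higher in mutant jejunum had varied roles. Leap2, a liver and jejunal peptide that acts at the ghrelin receptor, stood at 10.25, 9.40 and 9.52 in mutant jejunum, 5.83, 5.29 and 5.07 in ileum and 11.50 ± 0.49 in control jejunum (4.32, adjusted p = 3e-05). Afp (alpha-fetoprotein) stood at 8.76, 8.73 and 8.17 against 5.32, 5.17 and 5.06 (3.37, adjusted p = 3.27e-06), with 10.14 ± 0.13 in control jejunum, and 3 of its 4 probe sets were called. Rab30, a small GTPase of the Golgi, spread widely in mutant jejunum (9.04, 7.47 and 10.19) above 5.28, 5.15 and 4.79 in ileum (3.83, adjusted p = 0.00637), and the other of its 2 probe sets was not called (0.48, adjusted p = 0.365). All 3 lay nearer to control jejunum than to ileum.

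**Figure D3:**
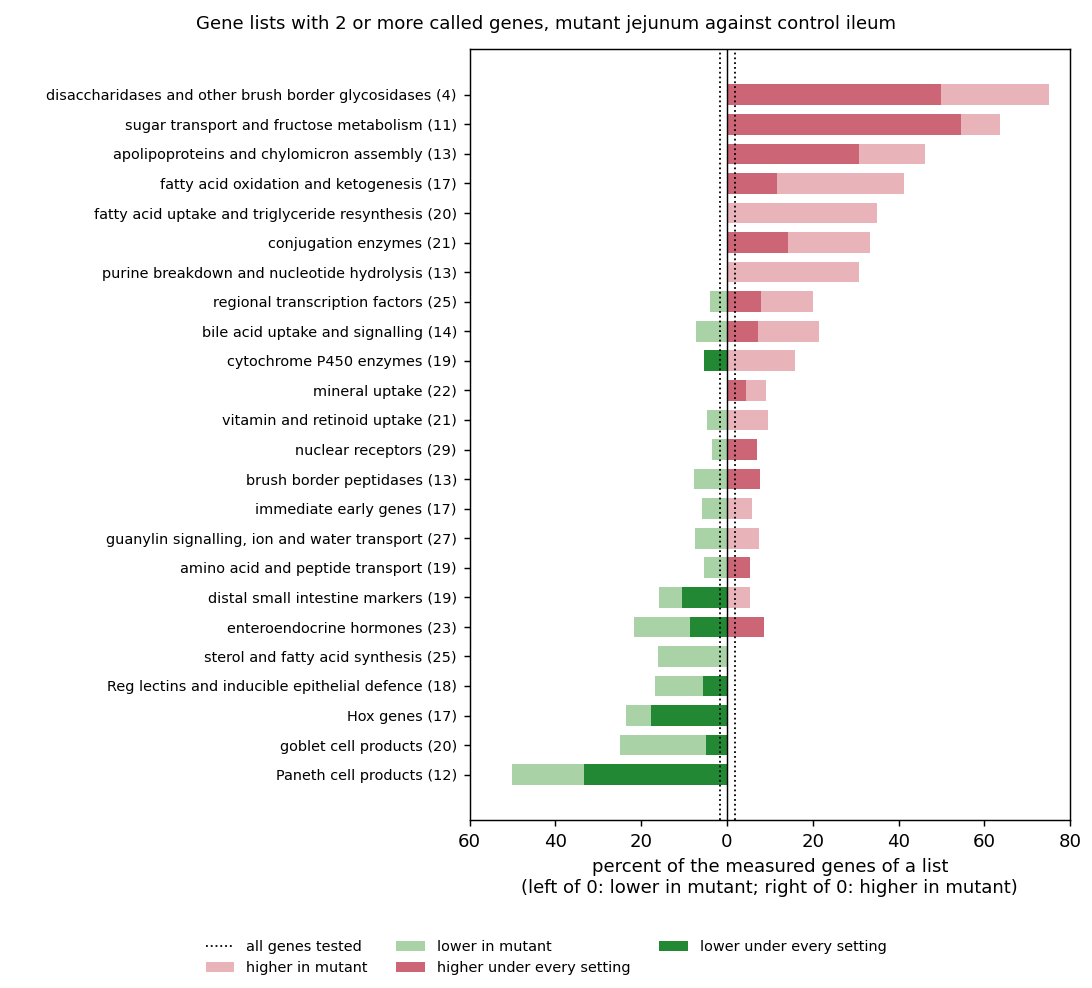
Percent of the measured genes of each list called higher (right) or lower (left) in mutant jejunum than in control ileum, with the part that held under each of 20 alternative settings in the darker colour; dotted lines mark the percent among all genes tested (1.97% higher, 1.7% lower) and the number of measured genes stands in parentheses. Lists of sugar handling, apolipoproteins, fatty acid uptake and fatty acid oxidation lie to the right, though no call of the uptake list held. Those of Paneth and goblet cells, Hox genes and sterol and fatty acid synthesis lie to the left. Over all probe sets, no scaling and centring on medians ended more calls of lower than of higher ones.

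Among 18 genes of Reg lectins and inducible defence, 3 were called lower in mutant jejunum than in ileum, 0 higher and 15 not called, and only Saa1 held under each alternative. Saa1, a serum amyloid A that epithelial cells make on contact with bacteria, read 4.18 ± 0.08 in control jejunum, at 5.10, 6.82 and 8.09 on the mutant jejunum arrays 1, 2 and 3, against 11.25, 11.24 and 13.21 in control ileum. Its difference from ileum was -5.23 (-6.69 to -3.77, adjusted p = 0.00319), and no groups overlapped. Saa2, its close relative, stood at 4.89, 5.09 and 5.35 in mutant jejunum against 6.94, 6.78 and 9.09 in ileum (-2.49, adjusted p = 0.0231). Saa1 and Saa2 are nearly alike in sequence, so that cross-hybridization may blur them; this was not tested. Fut2, the fucosyltransferase that decorates ileal surface glycans, stayed near the bottom of the scale in mutant jejunum (4.55, 4.90 and 5.38, against 8.09, 6.41 and 6.53 in ileum; -2.07, adjusted p = 0.0226, and -1.20 with 64 added).

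The Saa2 call was lost without mutant jejunum 1 (0.0831) and mutant jejunum 2 (0.0632), with 64 added before the logarithm (0.0509) and in a fit of the 2 groups alone (0.0664), and that of Fut2 without mutant jejunum 1 (0.0844) and 2 (0.0619) and in the same fit (0.0583). The count of 3 called lower in this list was 1 without mutant jejunum 1 and 1 without mutant jejunum 2. The lectins of the list did not separate the groups: Reg3b differed by -0.05 (-0.49 to 0.38) and Reg3g by -0.04 (-0.32 to 0.23), both near the top of the scale in either group.

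**Figure D4:**
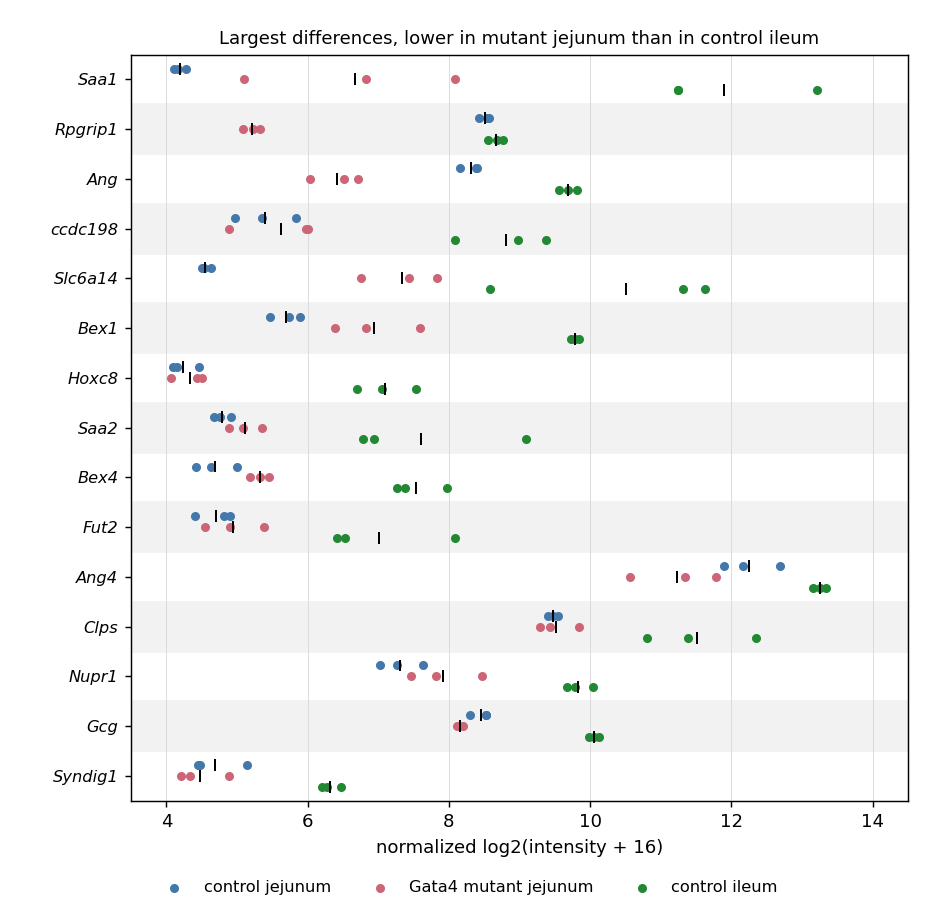
Normalized log2(intensity + 16) of the 15 genes with the largest called deficit in mutant jejunum against control ileum, 1 point per array and a bar at each group mean. For Hoxc8, Clps and Fut2 the mutant arrays lie with control jejunum, for Saa1, Slc6a14 and Bex1 between the segments, and for Rpgrip1, Ang and Ang4 below both.

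Products of Paneth cells, the antimicrobial cells at the crypt base, were called lower in part. Of 12 measured, 6 were called lower in mutant jejunum and 0 higher, with a median difference of -1.08 against -0.02 over all genes. The median was -0.43 without mutant jejunum 1, -0.70 without control ileum 1 and -0.51 with no scaling between arrays, and the count was 4 without mutant jejunum 1 or any single ileum array. A further 13 listed genes, most of them defensins, were not measured. Ang4, a microbicidal angiogenin, stood at 11.35, 11.78 and 10.57 in mutant jejunum, against 13.34, 13.26 and 13.15 in ileum (-2.02, adjusted p = 0.0041), with 12.25 ± 0.41 in control jejunum, and the other of its 2 probe sets was not called (-0.91, adjusted p = 0.113). Mptx1, a mucosal pentraxin, stood at 10.94, 11.06 and 10.99 against 12.64, 11.93 and 12.31 (-1.30, adjusted p = 0.00319). Nupr1, a stress-response nuclear protein, stood at 7.46, 7.82 and 8.47 against 9.79, 9.67 and 10.04 (-1.92, adjusted p = 0.0031), and Clps (colipase) at 9.52 ± 0.28 against 11.52 ± 0.78 (-1.99, adjusted p = 0.00859), each close to the jejunal level.

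Lysozyme and the defensins of the list were not called. Lyz1 (lysozyme) stood at 13.48 ± 0.20 in mutant jejunum and 13.68 ± 0.15 in ileum (-0.20, -0.43 to 0.03), near the top of the scale, where differences are compressed. Defa31, an alpha-defensin, stood at 12.79, 12.87 and 12.91 against 13.11, 12.82 and 12.98 in ileum, and at 9.47, 9.97 and 7.82 in control jejunum (-0.11 against ileum, -1 to 0.77), so that it had reached ileum within its error. The other measured defensin of the list, Defa39, differed by -0.87 (adjusted p = 0.323).

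Of 20 goblet cell products, 5 were called lower and 0 higher, with a median of -0.49, but with no scaling between arrays the median was 0.07 and 2 were called lower, as 2 were with arrays centred on their medians. The count was 1 without mutant jejunum 1, 2 without control ileum 1 and 1 without control ileum 2. Ang held under each alternative. Muc2, the main intestinal mucin, differed by -0.17 (-0.47 to 0.12). Smooth muscle and neuronal markers were lower in mutant jejunum beside these lists, by the values given above.

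Hox genes mark position along the trunk in many tissues of the gut wall. Of 17 measured, 4 were called lower in mutant jejunum than in ileum and 0 higher, with a median of -0.24 that was 0.05 with no scaling between arrays, and 17 listed Hox genes were not measured. Hoxc8 stood at 4.44, 4.51 and 4.06 in mutant jejunum, 4.23 ± 0.20 in control jejunum and 7.53, 6.70 and 7.06 in ileum (-2.76, -3.26 to -2.25, adjusted p = 0.000197), and its size moved from -4.77 to -1.44 with 1 and 64 added before the logarithm. Hoxc9 was low in both jejunal groups too, at 4.35 ± 0.01 and 4.62 ± 0.08 against 5.50 ± 0.19 in ileum (-1.15, adjusted p = 0.00752; -2.49 and -0.45 with 1 and 64 added). Hoxb9 differed from these in lying between the segments, at 6.6, 6.27 and 5.94 in mutant jejunum against 7.42 ± 0.13 in ileum and 4.92 ± 0.18 in control jejunum (-1.15 against ileum, adjusted p = 0.012, and 1.35 above control jejunum, adjusted p = 0.00267). Actg2, the gamma actin of visceral smooth muscle, showed a difference of similar size (10.02 ± 0.40 against 11.60 ± 0.27, -1.59, adjusted p = 0.00435), and its part in the Hox levels was not tested.

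Further transcripts below ileum included some known from neurons, and 6 of the 14 markers of enteric neurons and glia were called lower beside them (means of 5.46 to 5.66 in mutant jejunum and 5.83 to 6.17 in ileum), whose part was not tested. Bex1, a small protein known from neurons, stood at 6.83, 6.39 and 7.59 in mutant jejunum, 5.70 ± 0.21 in control jejunum and 9.73, 9.79 and 9.84 in ileum (-2.86, adjusted p = 0.000288), and its relative Bex4 at 5.32 ± 0.14 against 7.54 ± 0.38 in ileum (-2.21, adjusted p = 0.000666; -1.41 with 64 added). Stmn2, a stathmin of neurons and itself one of those markers, differed by -1.18 (adjusted p = 0.00335; -0.67 with 64 added). Syndig1, a transmembrane protein of synapses, stood at 4.47 ± 0.36 against 6.32 ± 0.13 (-1.84, adjusted p = 0.00335; -3.35 and -0.86 with 1 and 64 added). Slc6a14, an amino acid carrier of the distal gut, was intermediate, with 6.75, 7.44 and 7.83 in mutant jejunum, 4.55 ± 0.07 in control jejunum and 8.58, 11.31 and 11.63 in ileum. Its difference of -3.17 (adjusted p = 0.0259) was lost without mutant jejunum 1 (0.0953), mutant jejunum 2 (0.0642), control ileum 2 (0.105) and control ileum 3 (0.0671) and in a fit of the 2 groups alone (0.0717), and the other of its 2 probe sets was not called (-2.30, adjusted p = 0.0563). Control ileum 1 was the low one of the 3 ileal arrays.

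Some transcripts in mutant jejunum were lower than in either control segment. Rpgrip1, a ciliary protein known from photoreceptors, read 8.54, 8.57 and 8.43 in control jejunum, 5.09, 5.32 and 5.23 on the mutant jejunum arrays and 8.55, 8.68 and 8.76 in ileum. The arrays of each group lay close together (SD 0.08 to 0.11), and the mutant differed by -3.46 from ileum (-3.74 to -3.17, adjusted p = 2.88e-07) and by -3.30 from control jejunum (adjusted p = 2.37e-07). Ang (angiogenin) read 8.32 ± 0.14 in control jejunum, 6.52, 6.71 and 6.03 on the mutant jejunum arrays and 9.81, 9.56 and 9.68 in ileum (-3.26 against ileum, adjusted p = 4.61e-06, and -1.90 against control jejunum, adjusted p = 0.000177). It was called in 2 of its 3 probe sets, and the third differed by 0.00 (adjusted p = 0.999). The angiogenins are close in sequence, and cross-hybridization between Ang and Ang4 was not tested.

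Rpgrip1, Ang and Ang4 lie on chromosome 14, as does Gata4. So does ccdc198, which stood at 6.00, 5.98 and 4.88 in mutant jejunum, 5.39 ± 0.44 in control jejunum and 8.08, 8.98 and 9.37 in ileum (-3.19, adjusted p = 0.00208) and was thus low in both jejunal groups. Of 465 genes tested on chromosome 14, 12 were called lower (2.58%, against 1.7% of all genes) and 11 higher (2.37%, against 1.97%). The X chromosome, which holds Bex1, Bex4 and Slc6a14, had 14 of 409 called lower (3.42%), and chromosome 19 had 25 of 499 called higher (5.01%).

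The intracellular carrier and the exporter of bile acids were not called against ileum, while some other genes of the bile acid list were. All 14 measured members of the list are given, of which 3 were called higher than in ileum, 1 lower and 10 not called, with a median difference of 0.12. The interval lay within 2-fold of ileum for 8 of the 14, a smaller share than the 87% of all genes tested. Fabp6, the ileal bile acid binding protein, stood at 13.90 on each mutant array, the top of the scale, at 13.70, 13.85 and 13.65 in ileum and at 4.84 ± 0.19 in control jejunum. Its difference from ileum was 0.16 (-0.08 to 0.41, adjusted p = 0.521), and a ceiling of the scale limits what could be seen. It was -0.04 with trimmed mean scaling, and with no scaling Fabp6 was called higher (0.55, adjusted p = 0.0273). Slc51a and Slc51b, the 2 subunits of the basolateral bile acid exporter, differed by 0.11 (-0.15 to 0.36) and 0.13 (-0.25 to 0.50). With no scaling both were called higher (adjusted p = 0.0173 and 0.0162), and Slc51b differed by -0.05 without mutant jejunum 3.

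The apical entry for bile acids was not called either. Slc10a2 (ASBT) read 4.34 ± 0.29 in control jejunum, 9.60, 9.94 and 10.69 on the mutant jejunum arrays and 11.05, 10.63 and 10.45 in ileum, and the last 2 groups overlapped. Its difference of -0.63 (-1.21 to -0.05, adjusted p = 0.267) passed the test once mutant jejunum 3, the highest of the mutant arrays, was left out (adjusted p = 0.0469). Over the 20 alternatives the Slc10a2 difference ran from -0.94 to 0.00, with an adjusted p of up to 0.993. Nr1h4 (FXR), the bile acid receptor, stood at 9.75, 9.91 and 10.26 against 10.23, 10.30 and 10.49 in ileum (-0.37, -0.68 to -0.05, adjusted p = 0.226) and differed by 0.26 with no scaling between arrays.

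Nr0b2 and Fgf15, both known targets of FXR, were called higher in mutant jejunum than in ileum, whereas Fabp6, Slc51a and Slc51b, which FXR also induces, were not called. Nr0b2 (SHP), the repressor induced by FXR, read 5.35 ± 0.33 in control jejunum, 7.38, 7.64 and 8.00 on the mutant jejunum arrays and 5.28, 5.07 and 4.98 in ileum. Its arrays in mutant jejunum lay above all 6 control arrays, and its difference from ileum was 2.56 (2.11 to 3.02, adjusted p = 0.000158) and held under each alternative, with 1.61 when 64 was added before the logarithm. Fgf15, the hormone that enterocytes send to the liver, read 4.13 ± 0.02 in control jejunum, 7.86, 7.34 and 9.70 on the mutant jejunum arrays and 6.70, 4.69 and 5.43 in ileum. Its difference of 2.69 (1.43 to 3.94, adjusted p = 0.0343) did not survive the removal of control jejunum 1, 2 or 3 (0.0543, 0.0542 and 0.0571), mutant jejunum 1 (0.0781), control ileum 2 (0.124) and control ileum 3 (0.0886), with no filter (0.0588), with no intensity trend (0.0523) and in a fit of the 2 groups alone (0.0908). Mutant jejunum 3 was the highest array for this gene.

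The remaining bile acid genes had smaller differences. Abcc2 (MRP2), an apical exporter, was at the jejunal level, 10.02 ± 0.31 against 8.48 ± 0.88 in ileum (1.54, adjusted p = 0.0418), and Nr5a2 (LRH-1), the receptor that works with SHP, stood at 8.26 ± 0.18 against 8.91 ± 0.20 (-0.65, adjusted p = 0.0397). The Abcc2 call was lost under 10 of the 20 alternatives, among them the removal of mutant jejunum 1 or 2 (0.105 and 0.128), control ileum 2 or 3 (0.113 and 0.0506) or control jejunum 1, 2 or 3 (0.0626, 0.0626 and 0.0665). That of Nr5a2 was lost under 13, among them the removal of mutant jejunum 1 or 3 (0.142 and 0.0608), control ileum 1, 2 or 3 (0.057, 0.152 and 0.0703) or control jejunum 1, 2 or 3 (0.0573, 0.0627 and 0.0633) and no scaling between arrays (0.708). The basolateral exporter Abcc3 differed by 0.90 (adjusted p = 0.0852) and was called without control ileum 3 (0.0412), with arrays centred on their medians (0.024), with no scaling and with array weights (0.0435). Cyp27a1, a sterol hydroxylase, differed by -0.81 (adjusted p = 0.0863) and was called without control ileum 3 (0.0252) and with array weights (0.0489). The smallest were Slco2b1 (-0.08, -0.44 to 0.29), an organic anion carrier, Klb (-0.40, -0.85 to 0.04), the co-receptor beta-klotho, and its partner Fgfr4 (0.14, -0.28 to 0.56). The sign for Slco2b1 turned with no scaling (0.44), with arrays centred on their medians (0.13) and without control ileum 1 (0.01).

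**Figure D5:**
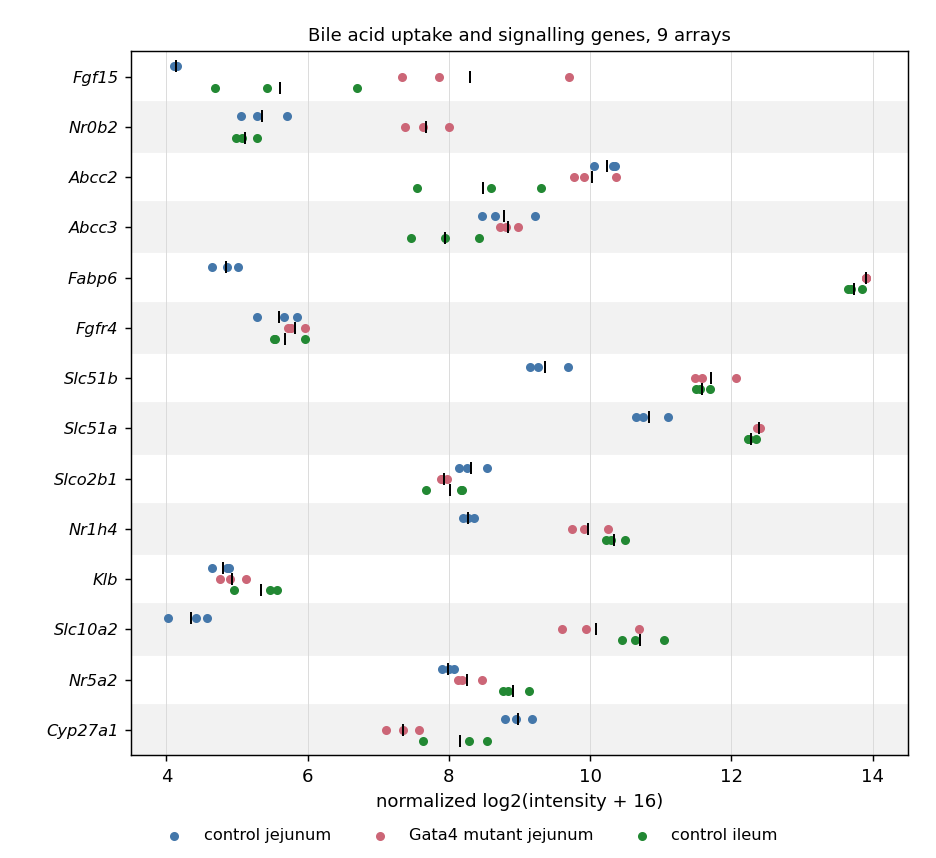
Normalized log2(intensity + 16) of the 14 measured genes of bile acid uptake and signalling, ordered by the difference between mutant jejunum and control ileum, 1 point per array and a bar at each group mean. Fabp6, Slc51a, Slc51b and Slc10a2 lie near ileum on the mutant arrays and far from control jejunum, while Fgf15 and Nr0b2 lie above both segments.

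Calcium and metal genes gave 2 further cases in which the mutant arrays lay above both segments. S100g (calbindin-D9k), the calcium shuttle of the duodenal enterocyte, read 8.51, 7.40 and 6.71 in control jejunum, 11.08, 11.18 and 8.77 on the mutant jejunum arrays and just 6.63, 7.43 and 7.23 in ileum. Its difference from ileum of 3.25 (1.93 to 4.56, adjusted p = 0.02) was lost without mutant jejunum 1 (0.0792), mutant jejunum 2 (0.0632), control ileum 1 (0.0624) and control ileum 2 (0.0606). Mt2 (metallothionein 2), a zinc and copper binding protein, stood at 10.70, 10.85 and 11.43 in mutant jejunum, against 8.65, 9.73 and 8.97 in ileum and 9.93 ± 0.34 in control jejunum (1.87 above ileum, adjusted p = 0.00752). This call held under each alternative, whereas the excess of 1.07 over control jejunum was not called (adjusted p = 0.0624). These were the 2 called of 22 measured genes of mineral uptake, and Slc40a1 (ferroportin), the iron exporter, differed by 0.26 (-0.60 to 1.13).

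Of 25 measured genes of sterol and fatty acid synthesis, 4 were called lower in mutant jejunum than in ileum and 0 higher, with a median of -0.52, but with no scaling between arrays the median was 0.07, 1 was called lower and 2 higher, and with arrays centred on their medians 1 was called lower. The count was 0 without mutant jejunum 1, 2 without mutant jejunum 3, 1 without control ileum 1, 2 without control ileum 2 and 2 without control ileum 3. Scd2, a desaturase that makes oleate, was the largest, at 10.37, 11.05 and 11.14 in mutant jejunum, 8.42 ± 0.11 in control jejunum and 11.91, 11.86 and 12.58 in ileum (-1.26, adjusted p = 0.0169), and its call was lost without mutant jejunum 1 (0.0512) and in a fit of the 2 groups alone (0.0524). None of 9 measured genes of sterol transport was called by limma (1 at an unadjusted p under 0.05, and 3 called higher with no scaling). The interval of each lay within 2-fold of ileum, as it did for 87% of all genes tested. Npc1l1, the cholesterol entry of the brush border, was among them (0.24, -0.20 to 0.68).

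Several groups of genes did not separate mutant jejunum from ileum by this test. No gene was called by limma among 22 of the cell cycle, 18 of crypt stem cells and Wnt targets, 15 of the circadian clock, 14 of tuft cells, 9 of citrulline and proline metabolism, 7 drug efflux pumps and 24 of MHC and interferon response. At an unadjusted p under 0.05 these lists held 4, 7, 2, 2, 3, 3 and 4 genes in that order. Some counts were above 0 under other settings: the crypt list had 3 called lower without mutant jejunum 3, 2 without control jejunum 2 and 6 with array weights, and the MHC and interferon list had 13 called higher with no scaling. Without mutant jejunum 3 the tuft list had 1 called higher and the citrulline list 1 in each direction, and without control ileum 3 the clock and efflux pump lists had 1 called lower each. With no scaling the citrulline list had 5 called higher, the tuft list 4, the efflux pump list 3 and the clock list 1. The crypt list then had 1 in each direction. For the cell cycle list, with a median of -0.27, the interval of each of the 22 genes lay within 2-fold of ileum. Over all genes tested it did so for 87%. In the MHC and interferon list it did so for 7 of 24, so that 3 arrays a group did not exclude differences beyond 2-fold for the rest. Mki67, the proliferation marker, differed by -0.27 (-0.67 to 0.14), the stem cell marker Lgr5 by -0.74 (-1.15 to -0.34, adjusted p = 0.0605, called with array weights, 0.0215, and without control jejunum 2, 0.0448) and Olfm4 by -0.20 (-0.64 to 0.23).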

How the data were processed

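Total RNA of 3 control jejunum, 3 mutant jejunum and 3 control ileum samples was hybridized to 1 array each. The authors deposited 1 linear intensity per probe set, made with GCOS per the submitters' processing notes; its version and scaling settings are not stated there. Of 45101 probe sets, 64 control probe sets were left out. The remaining 45037 were taken as log2(intensity + 16) and quantile normalized over the 9 arrays, because the deposited arrays did not share a scale. Probe sets above the 40th percentile on at least 3 of 9 arrays were kept (29307). Differences were fitted with limma 3.58.1 in R 4.3.3 over all 9 arrays, so that the 3 groups shared 1 estimate of the spread, with an intensity trend and Benjamini-Hochberg adjustment over all probe sets tested. The number of arrays limits the precision, and an exact permutation test of 3 against 3 cannot go below p = 0.1.

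A gene is its brightest tested probe set with 1 symbol (13830 genes). Of all probe sets, 34945 had 1 symbol, 932 several and 9160 none in GEO's platform annotation. A gene of a list is called not measured where no such probe set passed the filter. The text names Gata4, the 15 called genes with the largest difference in each direction whose groups did not overlap, up to 5 called genes per direction and up to 3 bright uncalled genes of a list, and all bile acid genes. Apob, Cck, Cd36, Cdx2, Defa31, Gata5, Gata6, Khk, Lgr5, Mki67, Muc2, Slc15a1 and Slc40a1 fall outside this rule and were chosen after their values were seen. Members and lists were chosen with earlier results of these data known, and support nothing by themselves. Promoters are the first RefSeq entry of a gene in GRCm38.p6. The fit was tested on simulated data, and 20 alternatives were tried on scaling, added constant, filter, samples fitted, trend, array weights, replicate block and each array left out.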

Additional observations from a re-analysis of the deposited data

How the results depend on the processing

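Over 20 alternatives, 49 of the 65 called genes that the text names kept direction and call wherever they were tested (Hoxc9 in 19). Another 16 lost the call under at least 1, and none of these 65 changed sign. Of the 32 named genes that were not called, Cdx2 was called higher where its sign turned (lowest adjusted p = 0.0463). A further 15 were called without a change of sign under at least 1 alternative. With no scaling these included Gata5 (0.92, adjusted p = 0.00415), Gata6 (0.76, 0.0136), Slc5a1 (0.73, 0.00557), Apoa1 (0.43, 0.0278) and Npc1l1 (0.86, 0.0283). The counts of probe sets, 406 higher and 372 lower, became 8349 and 148 with no scaling between arrays, 936 and 248 with arrays centred on their medians, 267 and 261 with no filter on low values, 162 and 170 in a fit of the 2 groups alone, 247 and 278 with no intensity trend and 855 and 825 with array weights. Leaving out 1 array gave 124 to 546 higher and 76 to 496 lower. What same-numbered mutant and ileum samples share beyond the number was not tested. Their deviations correlated at 0.122, 0.00749 and 0.0965, and those of samples with unlike numbers at -0.118 to 0.0267. Mutant jejunum 1 and 3 correlated best with the ileum array of their own number, and mutant jejunum 2 with control ileum 1 (0.0267). With the replicate number as a block the counts were 353 higher and 324 lower. Of these, 309 and 285 were shared with the fit without the block.

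Signs turned only among genes that were not called with the processing given here. With no scaling between arrays these were Cdx2 (0.54), Defa31 (0.35), Lyz1 (0.16), Mki67 (0.30), Muc2 (0.29), Nr1h4 (0.26), Olfm4 (0.41), Reg3b (0.27), Reg3g (0.31), Slc15a1 (0.44), Slco2b1 (0.44) and Vil1 (0.42). With arrays centred on their medians they were Cdx2 (0.23), Defa31 (0.04), Olfm4 (0.10), Reg3g (0.00), Slc15a1 (0.12), Slco2b1 (0.13) and Vil1 (0.11). With trimmed mean scaling they were Apoa1 (-0.16), Fabp2 (-0.23) and Fabp6 (-0.04). With 1 array left out, the range crossed 0 for Apoa1 (-0.03 to 0.12), Cd36 (-0.06 to 1.19), Reg3b (-0.11 to 0.01), Reg3g (-0.12 to 0.04), Slc15a1 (-0.34 to 0.06), Slc51b (-0.05 to 0.24), Slco2b1 (-0.24 to 0.01) and Vil1 (-0.12 to 0.04). The cause was not tested.

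With 3 arrays a group and an ileum dimmer than jejunum, small differences and genes near the bottom of the scale are the least certain, and brightness and segment cannot be told apart.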
